A study of Mus musculus with 12 samples.

Results

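The receptors and signalling proteins of the Toll-like receptor (TLR) system were followed in the retinal pigment epithelium (RPE) of WT and rd6 mice. The set holds 10 genes, taken by symbol: the receptors *Tlr1*, *Tlr2*, *Tlr3*, *Tlr4*, *Tlr7*, *Tlr8*, *Tlr9* and *Tlr13*, the co-receptor *Cd14* and the adaptor *Myd88*. All 10 were present among the 28591 genes of the table.

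TLRs recognize conserved molecules of microbes and of damaged cells. The receptors of the cell surface bind lipoproteins (TLR1 and TLR2) and lipopolysaccharide (TLR4, with MD-2 and CD14), whereas those of endosomes bind nucleic acids: double-stranded RNA (TLR3), single-stranded RNA (TLR7 and TLR8), unmethylated CpG DNA (TLR9) and bacterial ribosomal RNA (TLR13). All of these receptors except TLR3 signal through MyD88 to IRAK kinases, TRAF6 and NF-kB, and the endosomal receptors reach their compartment with the chaperone UNC93B1. In the posterior eye, TLRs are found on microglia and macrophages, and some, TLR3 among them, also on RPE cells.

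The study examined MFRP, a membrane protein of the RPE whose loss leads to retinal degeneration, and the RNA sequencing asked how the RPE transcriptome differs without it. RNA was taken from the RPE of 1-mo-old C57BL/6J mice (WT) and of *Mfrp* rd6/rd6 mice (rd6), with 6 libraries per genotype, each from the RPE of both eyes combined, and with mice of both sexes used in the study. The rd6 allele is a germline splicing mutation, carried by every cell, and the study shows the loss of MFRP in the RPE. The rd6 mice came from a separate line, *Mfrp* rd6/J, so that the allele and other differences between the lines cannot be told apart. Levels are normalized counts, that is, reads on a gene divided by the library's size factor.

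Per library, 28907262 to 33152725 reads were assigned to genes. *Mfrp* itself lay between 30130 and 45440 normalized counts in WT and between 20440 and 29730 in rd6 (adjusted p = 0.00126, limma), the transcript being still present, and *Xist* was high in 2 of 6 libraries of each genotype. Of 10 RPE genes, all but *Best1* (9.34 to 30.9 normalized counts in WT and 15.5 to 48.7 in rd6) were abundant in every library, but the samples also held other cells. The summed level of these 10 RPE genes was 485200 to 616800 in WT and 377900 to 502500 in rd6, and that of 10 rod genes was 33170 to 71520 and 17220 to 61750.

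Promoter sequences were available for 7 of the 10 genes (RefSeq, GRCm38.p6), in 8 windows of 250 bases upstream of a start site. Those of *Tlr1*, *Tlr9* and *Tlr13* are shown because they hold a 7-base stretch, GAGGAAG, a sequence of the kind bound by PU.1, a transcription factor of myeloid cells. They were chosen for this stretch, *Tlr2*, which also rose in rd6, has none in its window, and the windows of *Tlr7* and *Cd14* were not analysed here, so the stretch says nothing about which genes rose. Bases inside an annotated gene were left off, and the windows of *Tlr2*, *Tlr3* and *Myd88*, which lie mostly inside one, are not printed, nor is the window of a second *Tlr1* start site, which lies inside *Tlr1* and lacks the stretch. The stretch, searched on both strands, is in capitals. The windows are those of *Tlr1* (chr5:64933564-64933808, minus strand), *Tlr9* (chr9:106222348-106222597, plus strand) and *Tlr13* (chrX:106143025-106143203, plus strand), and, for comparison, that of *Tlr8* (chrX:167264330-167264579, minus strand), which had too few reads for the test and has no such stretch.
Tlr1: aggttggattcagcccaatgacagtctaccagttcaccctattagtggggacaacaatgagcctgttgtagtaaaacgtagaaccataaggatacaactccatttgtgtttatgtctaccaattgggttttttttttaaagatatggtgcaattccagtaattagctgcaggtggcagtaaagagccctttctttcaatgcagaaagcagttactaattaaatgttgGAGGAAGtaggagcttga
Tlr9: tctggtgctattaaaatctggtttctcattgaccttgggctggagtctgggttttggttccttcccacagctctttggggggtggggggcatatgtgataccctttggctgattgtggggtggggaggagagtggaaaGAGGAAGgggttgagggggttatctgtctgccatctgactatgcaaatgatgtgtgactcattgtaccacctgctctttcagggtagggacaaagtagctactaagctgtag
Tlr13: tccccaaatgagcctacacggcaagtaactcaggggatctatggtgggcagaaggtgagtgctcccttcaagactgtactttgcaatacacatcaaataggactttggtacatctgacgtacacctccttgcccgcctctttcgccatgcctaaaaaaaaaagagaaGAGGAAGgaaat
Tlr8: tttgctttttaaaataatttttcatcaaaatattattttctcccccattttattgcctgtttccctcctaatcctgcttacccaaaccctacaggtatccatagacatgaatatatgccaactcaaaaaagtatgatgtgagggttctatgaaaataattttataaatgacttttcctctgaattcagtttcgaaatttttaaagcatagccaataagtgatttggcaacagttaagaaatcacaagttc

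The stretch began 23 bases before the start site in *Tlr1*, 112 before it in *Tlr9* and 83 before it in *Tlr13*. Of 32851 mouse promoter windows of the same length, 10.6% held it. A related ETS-type sequence, AGGAAGT, was found in *Tlr1*, where it overlaps the first stretch, and in 7.69% of all windows. The interferon-response sequence GAAANNGAAA was found in *Myd88* (2.98% of all windows), the NF-kB consensus in *Tlr2* and *Tlr3* (7.25%) and the AP-1 sequence in *Tlr9* (4.46%). These are matches of letters only, and binding was not measured.

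Of the 10 members, 6 rose in rd6 (*Tlr1*, *Tlr2*, *Tlr7*, *Tlr9*, *Tlr13* and *Cd14*), *Tlr3*, *Tlr4* and *Myd88* did not pass the test, and *Tlr8*, with a mean of 5.63, lay under the filter of a mean of 10 normalized counts and was not tested. *Tlr1* and *Tlr9* had WT means under 10 and passed that filter only through rd6, where they are high. When at least 10 was required in every library, they were not tested and 4 members were called higher. Among all 17768 genes tested, 11.4% were called higher and 11.6% lower (limma on log2 normalized counts, adjusted p below 0.05). By at least 0.81 on the log2 scale, the fold limit of the study, 5 members rose (3 with at least 10 in every library), and 4.69% of all genes did. For 5 members, *Tlr9* among them, all 6 rd6 libraries lay above all 6 WT libraries, as for 5.77% of all genes. In bulk tissue, fewer cells of a type and less RNA per cell cannot be told apart, and the same holds for more cells and more RNA.

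**Figure D1:**
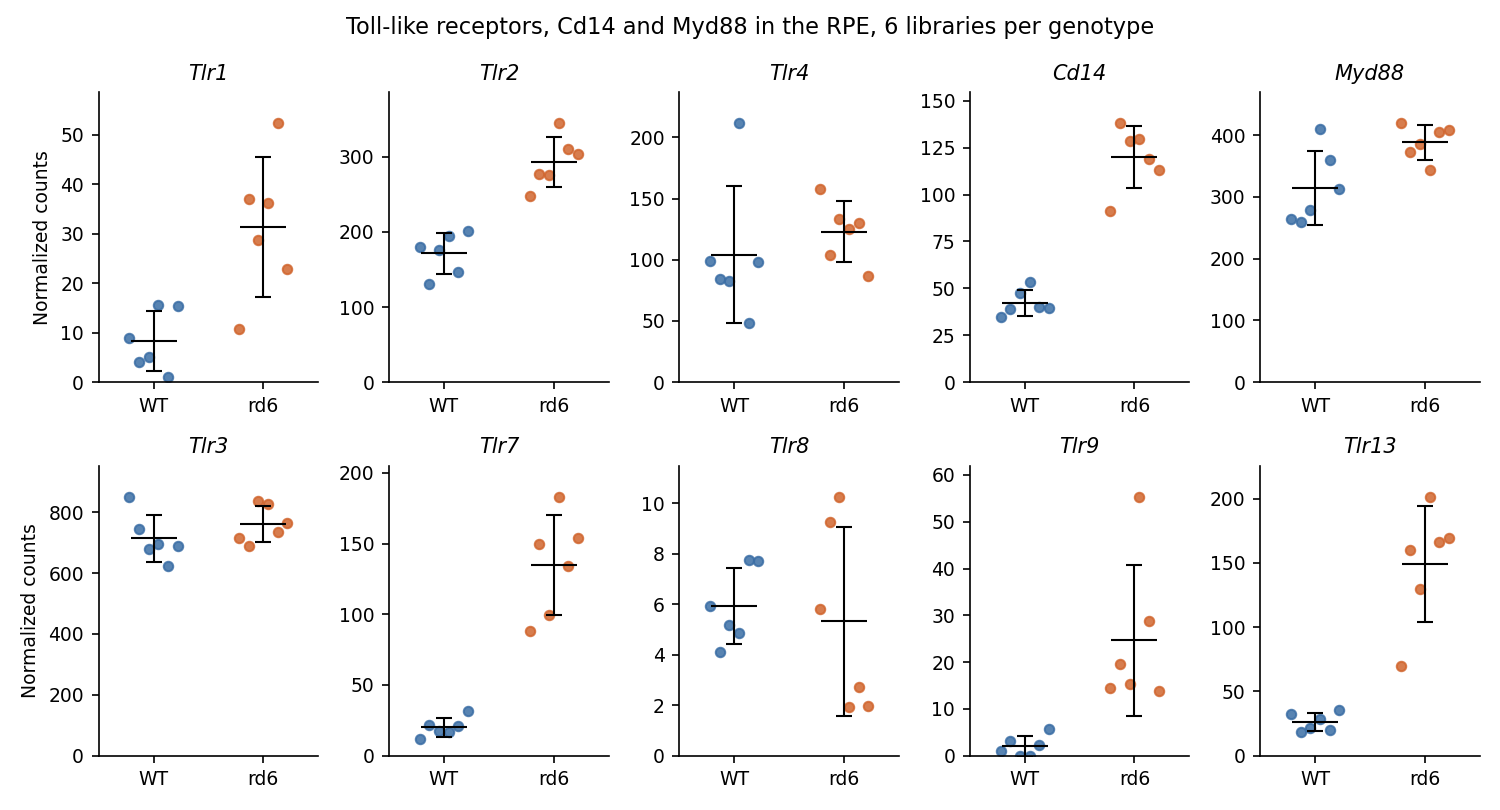
Normalized counts (vertical axes, starting at 0) of the 10 members in each of the 6 WT (blue) and 6 rd6 (orange) libraries, ordered by replicate number within a genotype, with the mean and SD in black. The rd6 points lie above all WT points for *Tlr2*, *Cd14*, *Tlr7*, *Tlr9* and *Tlr13*, and the genotypes overlap for the other 5.

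Among the receptors of nucleic acids, *Tlr7* and *Tlr13* rose the most clearly. *Tlr7* (chrX:167304929-167330558), a sensor of single-stranded RNA, ranged from 11.8 to 31.9 normalized counts in WT, with a median of 19.3, and from 88.2 to 183 in rd6, with a median of 142. The genotypes did not overlap, and *Tlr7* was 6.51-fold higher in rd6 (log2 fold change 2.70, SE 0.24, adjusted p = 5.08e-06, limma). *Tlr13* (chrX:106143204-106160493), which in mice detects bacterial ribosomal RNA, ranged from 18.6 to 35.8 in WT, with a median of 24.97, and from 69.8 to 201.5 in rd6, with a median of 163. It was 5.42-fold higher, again without overlap (log2 fold change 2.44, SE 0.25, adjusted p = 2.22e-05, limma). Both genes are X-linked, and both were called with the *Xist* level as a covariate.

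*Tlr9* (chr9:106222598-106226883), the receptor for CpG DNA, was almost silent in WT. It had 12 reads over the 6 WT libraries together, with 0 to 6 reads each, and 153 reads over the 6 rd6 libraries, with 14 to 58 each. In normalized counts this is 0 to 5.80 in WT, with a median of 1.60, and 13.9 to 55.4 in rd6, with a median of 17.5. The genotypes did not overlap. The log2 fold change was 3.25 (SE 0.52, adjusted p = 0.000713, limma), with a wide 95% interval from 4.33-fold to 20.9-fold, and without rd6 replicate 4, the highest library, *Tlr9* fell below the filter. The value depends on the pseudocount, at 4.61 with 0.1 and 1.44 with 10, and with 10 it lay below those of *Tlr7* (2.26) and *Tlr13* (2.10).

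The other sensors of this group differed from these. *Tlr8* (chrX:167242696-167264329), the neighbour of *Tlr7* on the X chromosome and likewise a receptor for single-stranded RNA, was at 4.13 to 7.75 in WT, with a median of 5.55, and at 1.91 to 10.3 in rd6, with a median of 4.26. It had 35 reads in all WT libraries and 32 in all rd6 libraries, the ranges overlapped, and the difference did not pass the test (log2 fold change -0.32, adjusted p = 0.661, limma without the filter). *Tlr3* (chr8:45395665-45411080), the receptor for double-stranded RNA, was the most abundant receptor and had 624 to 851 normalized counts in WT, with a median of 692, and 689 to 838 in rd6, with a median of 749. The ranges overlapped, and the difference was small (log2 fold change 0.10, SE 0.08, adjusted p = 0.404, limma, 95% interval from 0.952-fold to 1.20-fold). An antisense gene, *Gm45542*, overlaps *Tlr3*, and the counting is described only as run with standard parameters, with no strand setting named.

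Among the receptors of lipoproteins, *Tlr2* and its partner *Tlr1* both rose. *Tlr2* (chr3:83836272-83841767) lay between 131 and 201.1 normalized counts in WT, with a median of 177, and between 248 and 345 in rd6, with a median of 290. The genotypes did not overlap, but the rise of 1.72-fold was just below the fold limit of the study (log2 fold change 0.78 against 0.81, SE 0.12, adjusted p = 0.000457, limma). *Tlr1* (chr5:64924679-64933563) lay between 1.11 and 15.5 in WT, with a median of 7.03, and between 10.7 and 52.4 in rd6, with a median of 32.5. The lowest rd6 library, replicate 1, lay within the WT range and the other 5 lay above it (log2 fold change 1.96, SE 0.52, adjusted p = 0.0158, limma). With a pseudocount of 10 the log2 fold change of *Tlr1* was 1.16, and under a replicate block its call was lost (adjusted p = 0.0623, limma). *Tlr6*, the other partner of *Tlr2* and a close paralog of *Tlr1* with which reads may be shared, was at 14.1 ± 3.88 in WT and 19.9 ± 7.38 in rd6 (mean ± SD, n = 6 each) and did not pass the limma test (adjusted p = 0.24). Of the other mouse TLRs, *Tlr5* did not pass it either (log2 fold change 0.45, adjusted p = 0.834), and *Tlr11* and *Tlr12* had 0 to 5 reads per library and were under the filter. Without the filter *Tlr12*, at 0.488 ± 0.814 in WT and 2.25 ± 1.36 in rd6 (mean ± SD, n = 6 each), was called higher by limma (adjusted p = 0.045), on 0 to 2 reads per WT library and 1 to 5 per rd6 library.

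The lipopolysaccharide receptor and its co-receptor behaved differently. *Cd14* (chr18:36725067-36726798), which hands lipopolysaccharide to TLR4 and MD-2, was at 34.5 to 53.4 in WT, with a median of 39.8, and at 91.1 to 138 in rd6, with a median of 124. It was 2.79-fold higher without overlap (log2 fold change 1.48, SE 0.14, adjusted p = 9.33e-06, limma). *Tlr4* (chr4:66827584-66930284) was at 48.7 to 212 in WT, with a median of 91.6, and at 86.5 to 158 in rd6, with a median of 128. The 2 genotypes overlapped widely and *Tlr4* did not pass the test (log2 fold change 0.35, SE 0.28, adjusted p = 0.396, limma), the highest of all libraries being WT replicate 4. Without that library the log2 fold change was 0.58 (adjusted p = 0.051). *Ly96*, which encodes MD-2, was at 45.3 ± 14.0 in WT and 64.8 ± 8.81 in rd6 (mean ± SD, n = 6 each). Its log2 fold change of 0.54 was called by limma (adjusted p = 0.0479) but in only 8 of the 23 settings, with adjusted p up to 0.105.

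*Myd88* (chr9:119335934-119341411), the adaptor shared by nearly all TLRs and by the receptors of the IL-1 family, was already abundant in WT. It lay between 260 and 410 normalized counts in WT, with a median of 296, and between 343 and 420 in rd6, with a median of 395. The ranges overlapped, and *Myd88* missed the threshold (log2 fold change 0.32, SE 0.11, adjusted p = 0.0549, limma). It was called in 5 of the 23 settings, among them without WT replicate 4, the highest WT library (adjusted p = 0.00797). *Myd88* overlaps *Acaa1a* on the other strand and *Slc22a14* on its own.

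**Figure D2:**
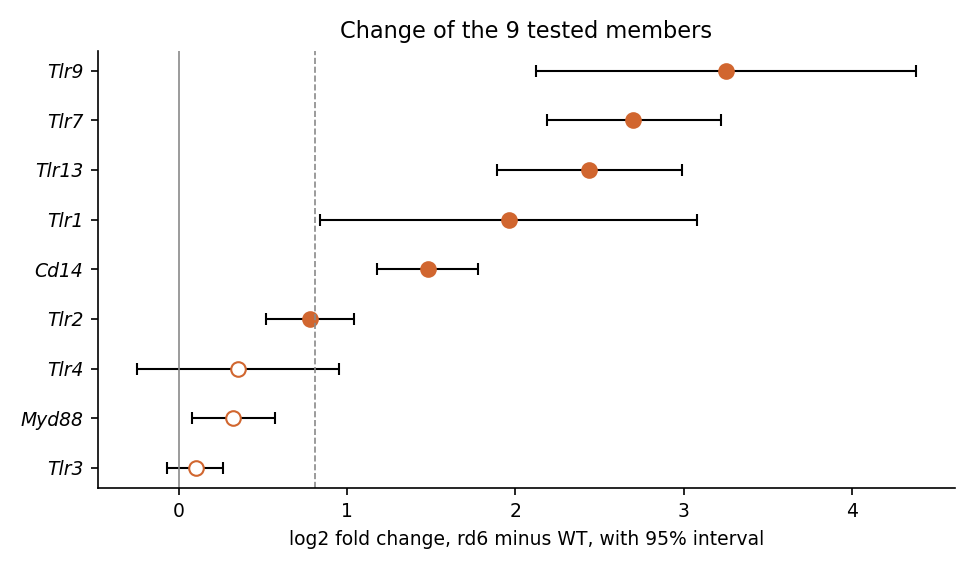
Log2 fold change of rd6 over WT (horizontal axis) for the 9 tested members, with 95% intervals from limma. Filled points passed the test, open points did not, and the dashed line marks 0.81, the fold limit of the study. *Tlr9*, *Tlr7* and *Tlr13* head the order at 3.25, 2.70 and 2.44 with a pseudocount of 1 (*Tlr9* is the lowest of these with 10), while the intervals of *Tlr3* and *Tlr4* span 0.

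To compare the members with each other, the levels were divided by exonic length. In WT the order of the mean normalized counts per kb was led by *Tlr3* (137 ± 14.9) and *Myd88* (122 ± 23.2), whose ranges overlapped. *Tlr2* (56.8 ± 9.08) lay apart from both and from *Cd14* (24.5 ± 3.97). The ranges of *Cd14* and *Tlr4* (18.8 ± 10.03) overlapped, and *Tlr4* lay apart from *Tlr13* (6.07 ± 1.65). Below it, *Tlr7* (4.92 ± 1.66), *Tlr1* (2.51 ± 1.81), *Tlr8* (1.65 ± 0.423) and *Tlr9* (0.580 ± 0.639) each overlapped with their neighbour in the order (SD, n = 6 each).

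In rd6 the upper part of the order was *Myd88* (151 ± 10.97) and *Tlr3* (146 ± 11.6), which overlapped, then *Tlr2* (97.3 ± 11.2) and *Cd14* (69.3 ± 9.59), each apart from the next. *Tlr13* (34.7 ± 10.5) and *Tlr7* (33.0 ± 8.73) now stood above *Tlr4* (22.1 ± 4.46) in the mean, although the ranges of *Tlr7* and *Tlr4* overlapped. *Tlr1* (9.37 ± 4.24) and *Tlr9* (7.08 ± 4.62) followed with overlapping ranges, and *Tlr8* (1.49 ± 1.04) was last and apart from *Tlr9* (SD, n = 6 each).

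**Figure D3:**
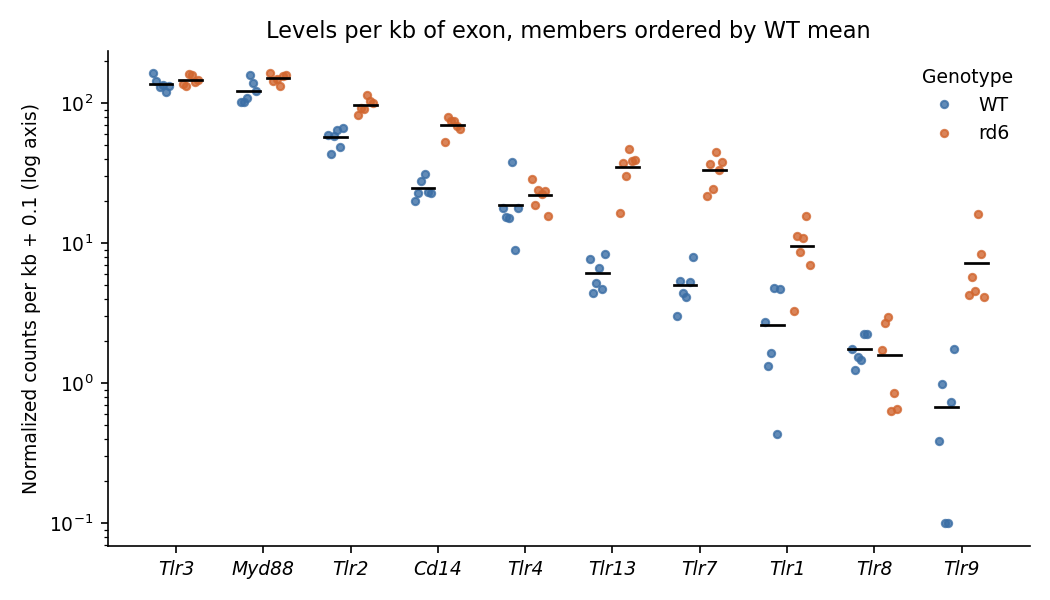
Normalized counts per kb of exon plus 0.1 (vertical log axis) for the 10 members in WT (blue) and rd6 (orange), with 1 point per library and the mean as a black line, ordered by the WT mean. *Tlr3* and *Myd88* stand above 100 in both genotypes in the mean, and the largest vertical gaps between genotypes are those of *Tlr9*, *Tlr7* and *Tlr13*.

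Within a genotype, some libraries were low or high for several members at once. Replicate 1 was the lowest rd6 library for 5 members (*Tlr1*, *Tlr2*, *Tlr7*, *Tlr13* and *Cd14*), and replicate 4 was the highest for 4 (*Tlr2*, *Tlr7*, *Tlr9* and *Tlr13*). The opposite also occurred, replicate 1 being the highest for *Tlr4* and *Myd88* and replicate 4 the lowest for *Tlr8* and *Myd88*. The mean log2 level of 18 microglia and macrophage markers was lowest in replicate 1 (8.57) and highest in replicate 4 (9.55). In WT that mean was highest in replicate 6 (6.95), which was the highest WT library for 4 members (*Tlr2*, *Tlr7*, *Tlr9* and *Tlr13*), while replicate 4 (6.67) was the highest for another 4 (*Tlr1*, *Tlr4*, *Cd14* and *Myd88*). The lowest WT mean was that of replicate 3 (6.05), which was lowest only for *Tlr9*, at 0 together with replicate 4, whereas replicate 2 (6.27) was lowest for 4 members and replicate 5 (6.17) for 3.

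The microglia and macrophage markers rose with the receptors. Of the 18 markers, 17 were called higher in rd6 by limma, with a median log2 fold change of 2.78. When at least 10 was required in every library, 12 were called higher. *P2ry13* and *Siglech*, with WT means of 7.53 and 6.40, passed the filter of the mean only through rd6. Among the genes that define microglia, *Trem2* went from 51.6 ± 12.4 to 1127 ± 383, *P2ry12* from 11.8 ± 3.17 to 247 ± 86.4 and *Cx3cr1* from 60.8 ± 25.3 to 633 ± 173 (mean ± SD, n = 6 each). The marker not called was *Csf1r*, at 17260 ± 2183 in WT and 18740 ± 1810 in rd6. The summed level of all 18 was 16810 to 22550 in WT and 28640 to 44350 in rd6, and without *Csf1r* it was 2652 to 4265 and 11110 to 23500 (p = 0.00216 for both, exact permutation test, the smallest p that 6 against 6 libraries allow). The part of these cells in the rise of the receptors was not tested.

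The members were then expressed relative to the mean log2 level of the 18 markers, which was 6.37 ± 0.361 in WT and 9.18 ± 0.390 in rd6. On this scale the difference of *Tlr7* between genotypes was -0.11 (adjusted p = 0.491) and that of *Tlr9* was 0.44 (adjusted p = 0.429), and the ranges of both overlapped between genotypes. *Tlr1* was lower by an amount that did not pass the test (-0.85, adjusted p = 0.114), and *Tlr13* was slightly lower (-0.37, adjusted p = 0.0325), a call lost without WT replicate 1 or 3 or without rd6 replicate 1, 2, 5 or 6 (adjusted p up to 0.0909). *Cd14* (-1.33), *Tlr2* (-2.03), *Tlr4* (-2.46), *Myd88* (-2.49) and *Tlr3* (-2.71) were lower relative to the markers, with all rd6 libraries below all WT libraries (adjusted p = 0.0039 each, exact permutation tests, 6 against 6 libraries, adjusted over the 9 members). Each difference is the member's own log2 fold change less the rise of the marker mean, 2.81. For *Tlr3*, *Tlr4* and *Myd88*, which limma did not call, the p of 0.0039 therefore restates the rise of the markers. The values depend on the markers. *Csf1r* itself hardly differed between genotypes (log2 fold change 0.12, adjusted p = 0.385, limma). Differences relative to *Csf1r* alone therefore stay close to the members' own fold changes, with *Tlr7* at 2.58 and *Tlr13* at 2.31. On that scale the direction turned for 7 of the 9. With a pseudocount of 10, *Tlr9* relative to the 18 markers was at -1.06 (adjusted p = 0.00487, exact permutation test).

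**Figure D4:**
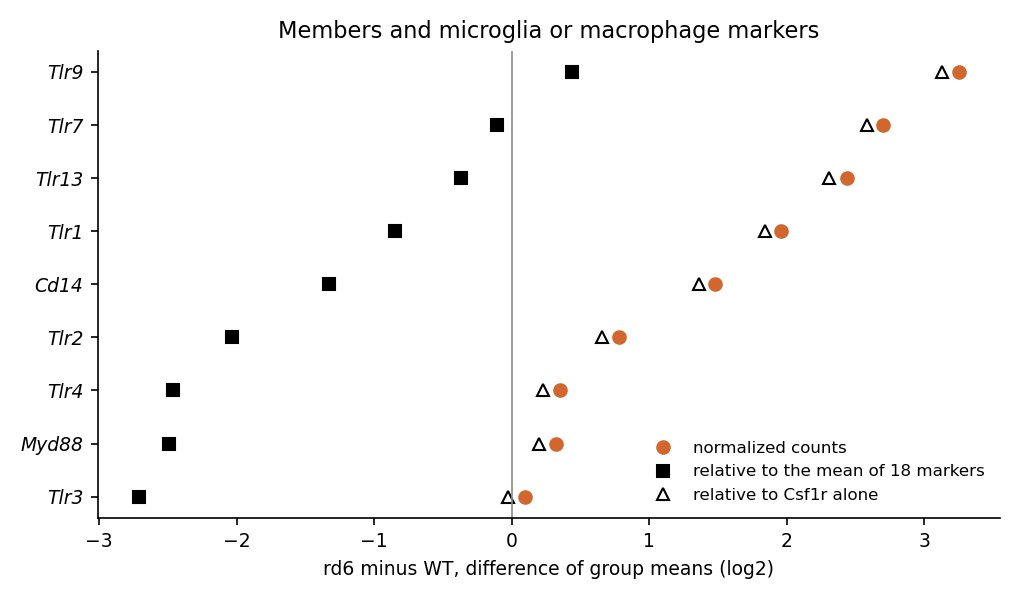
Difference of rd6 minus WT in mean log2 level (horizontal axis) for the 9 tested members, as normalized counts (orange circles), relative to the mean of the 18 microglia and macrophage markers (black squares) and relative to *Csf1r* alone (open triangles). The squares of *Tlr7*, *Tlr9* and *Tlr13* lie nearest to 0, at -0.11, 0.44 and -0.37, and the triangles lie close to the circles.

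Markers of other cells also moved. Of the 14 markers of other leukocytes, 4 could be tested and 1 rose, *Csf3r* (log2 fold change 3.15). The number called higher was 5 without the filter, 7 with DESeq2 and 2 with edgeR, while 9 of the 13 measured markers had a mean under 10. Of the genes that mark neutrophils, *Ly6g* and *Mpo* were at 1.03 or less in every library, whereas *Cxcr2* was at 0 to 4.13 in WT and 3.88 to 14.3 in rd6. The summed level of the 13 was 58.7 to 93.8 in WT and 181 to 348 in rd6, and without *Csf3r* that of the other 12 was 45.6 to 69.6 and 75.6 to 174.6 (p = 0.00216 for both, exact permutation test, the smallest possible). Endothelial markers were called higher for 5 of 6, with sums of 4726 to 8969 in WT and 7758 to 17890 in rd6, but for 3 without WT replicate 2 or under a replicate block. Rod markers were lower for 4 of 10, for 7 to 9 when WT replicate 1, WT replicate 5 or rd6 replicate 5 was left out, for 2 with edgeR and for 1 under a replicate block. RPE markers were lower for 3 and higher for 1 of 10 (higher for 2 without WT replicate 4). Markers of Müller glia and astrocytes were lower for 2 of 5, calls lost under a replicate block, with sums of 191800 to 261700 in WT and 150900 to 190900 in rd6. Most of that sum is *Rlbp1*, which is also among the RPE markers, and without it the sums were 57590 to 61180 and 46450 to 52870. Most of the remainder is *Glul*, at 56100 ± 1451 in WT and 47750 ± 2399 in rd6 (mean ± SD, n = 6 each). The 3 other genes of the list were not called. The 6 markers of fibroblasts and mural cells did not pass the test, although 1 was called lower without rd6 replicate 1 or 2, and 1 higher and 1 lower with the *Xist* covariate. The part of these cells in the result was not tested.

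The genes whose profile over the 12 libraries was closest to the mean profile of the 9 members were *Csf3r*, *Gpr157*, *Cx3cr1*, *Evi2a* and *Pdk1*. Their mean absolute difference of standardized log2 level was 0.138 for *Csf3r*, 0.151 for *Gpr157*, 0.165 for *Cx3cr1*, 0.173 for *Evi2a* and 0.181 for *Pdk1*, against a median of 1.10 over all genes tested. The mean profile was negative in every WT library (-1.46 to -0.267) and positive in every rd6 library (0.505 to 1.26). A close profile therefore mainly reflects a higher level in rd6, and the median covers genes that did not change or fell.

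Around the receptors, several genes for proteins that assemble, move or process TLRs also rose. The pathway lists, apart from the members, held 97 genes, of which 95 were measured and 80 tested. By limma 24 were called higher and 11 lower, that is 30.0% and 13.8% of those tested, where 11.4% and 11.6% of all genes were. Of the 24, *S100a8*, *Ccl3*, *Ccl5* and *Cd40* had WT means under 10 and passed the filter only through rd6. With at least 10 in every library, 8 accessory genes, 2 endogenous ligands and 0 target genes were called higher, and the counts of the other lists stayed the same. Of 14 tested accessory genes, 9 rose. *Cd180*, a TLR-like surface receptor, rose from 10.1 ± 7.58 to 155 ± 62.9 (log2 fold change 4.06), and its partner *Ly86* (MD-1) from a range of 21.8 to 93.8 to a range of 205 to 697 (3.77). *Ctss*, a protease that cleaves endosomal TLRs, rose from 356 ± 127 to 5132 ± 1707 (3.84), and *Slc15a3*, an endosomal peptide transporter, from 48.6 ± 14.9 to 134 ± 24.0 (1.47; mean ± SD, n = 6 each). *Unc93b1*, needed by all endosomal TLRs, rose from 373 ± 52.0 to 695 ± 120 (log2 fold change 0.89, adjusted p = 0.000302, limma).

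Among the downstream adaptors and kinases tested, the log2 fold changes were smaller, from -0.43 to 0.74. Of 21 tested, 2 rose and 6 fell, and under a replicate block 1 and 4 were called. *Pik3ap1* (BCAP), which links TLRs to phosphoinositide 3-kinase, rose by 0.74 on the log2 scale and *Irak4*, the first kinase of the MyD88 complex, by 0.37 (adjusted p = 0.0682 in limma under a replicate block). *Tirap*, the bridge between TLR2 or TLR4 and MyD88, fell by 0.43, *Tab2* by 0.36, *Irak2* by 0.34, *Traf6* by 0.30, *Irak1* by 0.26 and *Ikbkg* by 0.21. Of the adaptors of the TRIF arm, *Ticam1*, used by TLR3 and TLR4, was at 394 ± 36.4 in WT and 385 ± 26.5 in rd6 and was not called. *Ticam2*, which bridges TLR4 to it, was under the filter at 1.98 ± 1.71 and 12.1 ± 3.78, with 0 to 5 reads per WT library and 8 to 18 per rd6 library (mean ± SD, n = 6 each). Without the filter the log2 fold change of *Ticam2* was 2.29 (adjusted p = 0.0016, limma).

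**Figure D5:**
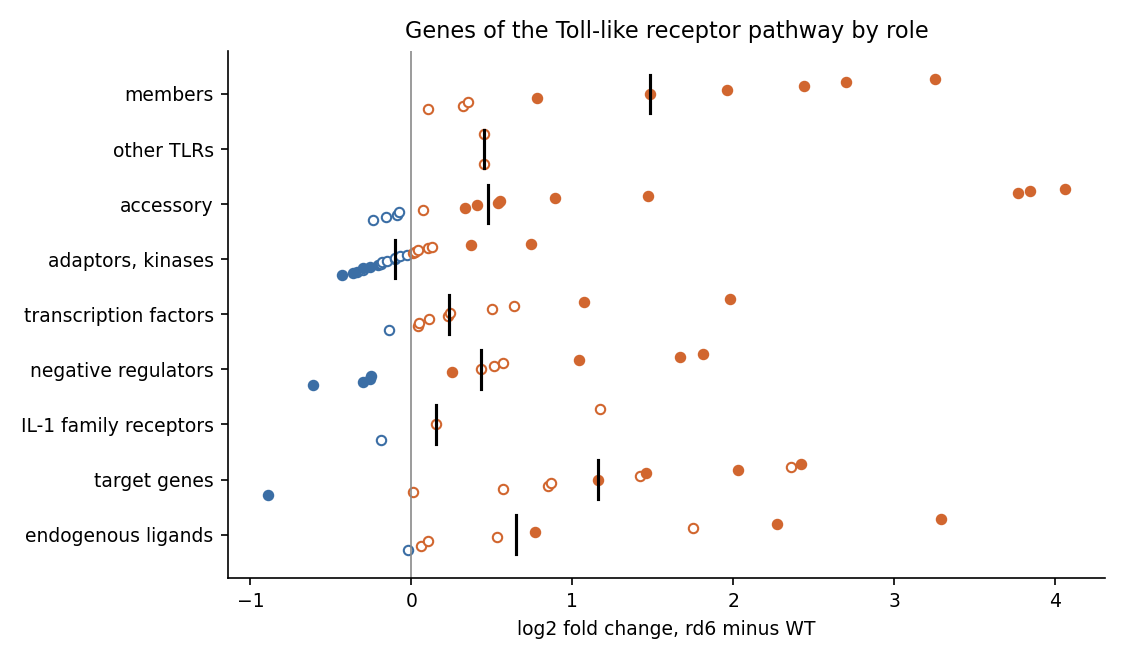
Log2 fold change of rd6 over WT (horizontal axis) for the tested genes of the pathway, grouped by role, with higher values in orange, lower in blue, genes that passed the test filled, and the median of each group as a black line. The members and the accessory genes hold the largest positive values beside the target genes and endogenous ligands, with *Cd180* highest at 4.06, and the adaptors and kinases are spread around -0.10.

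Of the 10 transcription factors tested, *Irf8* (log2 fold change 1.98) and *Irf5* (1.07), both typical of myeloid cells, rose, and the other 8 were not called. Without WT replicate 4, 4 of the 10 were called higher, and with edgeR after RLE scaling or under a replicate block 1 was, *Irf5* losing its call (adjusted p = 0.0521 and 0.0582). Negative regulators were divided, with 4 of 11 higher and 4 lower. *Nlrc3* (1.81), *Inpp5d* (SHIP1, 1.67), *Sigirr* (1.04) and *Tnip1* (0.25) rose, while *Tnfaip3* (A20), a deubiquitinase that restrains NF-kB, fell by 0.61 on the log2 scale, *Cyld* by 0.30, *Tollip* by 0.26 and *Rnf216* by 0.25. The 3 tested receptors of the IL-1 family did not pass the test. The fourth of the list, *Il18rap*, was under the filter at 1.51 ± 1.48 in WT and 6.76 ± 2.49 in rd6 (mean ± SD, n = 6 each), and was called higher without the filter and with DESeq2.

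Of 21 genes induced by TLR signalling, 11 could be tested, and 4 rose and 1 fell. *Ccl3* rose from 4.83 ± 4.79 to 23.9 ± 8.06 (log2 fold change 2.42), *Cd86* from 17.5 ± 8.49 to 71.1 ± 25.2 (2.03), *Ccl5* from 6.69 ± 4.36 to 17.7 ± 5.64 (1.46) and *Cd40* from 9.76 ± 5.17 to 22.3 ± 7.86 (1.16; mean ± SD, n = 6 each). All 4 had a WT library under 10 and were not tested when at least 10 was required in every library, and under a replicate block 2 of the 4 were called (*Ccl3* and *Cd86*). *Ccl5* was called in 16 of the 22 settings that tested it. *Il12b*, from 133 ± 26.4 to 71.4 ± 16.3, fell. Among those under the filter, *Il1b* was at 7.59 ± 5.91 in WT and 10.1 ± 5.42 in rd6, *Il6* at 0.323 ± 0.500 and 0.665 ± 1.03, and *Ccl4* at 1.37 ± 1.05 and 5.85 ± 2.59 with all rd6 above all WT libraries (mean ± SD, n = 6 each). Without the filter, 5 target genes in all were called higher. Among 8 tested endogenous TLR ligands, *S100a8* (log2 fold change 3.29), *Tnc* (2.27) and *Bgn* (0.77) rose. *S100a8*, with a WT mean of 3.32, passed the filter only through rd6, and was not tested when at least 10 was required in every library. With a pseudocount of 10 the log2 fold changes of the lowest of these genes were smaller, at 1.83 for *S100a8*, 1.22 for *Ccl3* and 0.75 for *Ccl5*, and that of *Cd180* was 3.04.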

How the data were processed

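The authors isolated RPE RNA from both eyes per sample, made stranded total-RNA libraries, aligned the read pairs to mm10, counted them with Rsubread at its standard parameters and normalized with DESeq2. They deposited a signal per gene, the read count divided by the size factor of the library. The authors also deposited their own log2 fold changes, test scores and p-values, which were not used here. Beyond this, the annotation and strand setting of the counting are not given in the sources used here.

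The table has 28596 entries, and 5 with repeated identifiers were dropped. Dividing each value by that of 1 read gave whole numbers (tolerance 0.1) for 100% of values, so reads were recovered. Size factors differed by at most 1.23 times, and 3 reads equal 2.71 to 3.32 normalized counts; that floor covers counting error only, whereas the 95% intervals of fold changes come from the spread between libraries. The 6 libraries of a genotype were taken as separate mice because each combined both eyes.

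The main test was limma 3.58.1 (R 4.3.3) with a mean-variance trend on log2(value + 1), genotype as the only term, for the 17768 genes whose mean reached 10, with Benjamini-Hochberg adjustment over these genes. Fold changes are on that scale, which shrinks differences near 0 and can understate changes of low genes. Single measures were compared with exact two-sided permutation tests over the libraries. On recovered reads, edgeR 4.0.16 (TMM) called 1981 genes higher and 2085 lower and DESeq2 1.42.0 called 2336 and 2396. The scripts were tested on simulated data.

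Positions are from GENCODE M21 (GRCm38). The text names all members, up to 4 called genes per list with the largest change, partners that complete a receptor complex, and the 5 closest profiles. Other genes were named after their values were seen (*Irak1*, *Irak2*, *Ikbkg*, *Tnip1*, *Cyld*, *Tollip*, *Rnf216*, *Il12b*, *Il1b*, *Il6*, *Csf1r*, *Trem2*, *P2ry12*, *P2ry13*, *Siglech*, *Ly6g*, *Mpo*, *Rlbp1*, *Glul*, *Best1*, *Cxcr2*, *Ccl4*, *Tlr5*, *Tlr12*, *Il18rap*). Members, lists, motifs and tests were chosen with earlier results of these data known. Alternatives were other pseudocounts, filters, scalings and tools, a replicate block, an *Xist* covariate and leaving out each library.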

Additional observations from a re-analysis of the deposited data

Results flagged for a closer look

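In WT, *Tlr4* of replicate 4, at 212 normalized counts, lay far from the other 5 WT libraries, the next of which was at 98.6. In rd6, *Tlr9* of replicate 4, at 55.4, lay far from the other 5, the next of which was at 28.9. Of 20 groups examined (10 genes in 2 genotypes), 2 were set apart in this way, and chance alone sets apart about 1 in 20.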

How the results depend on the processing

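The number of members called higher was 6 as reported and 4 to 7 across the alternatives, and the number past the fold limit was 5 and 3 to 6. The 3 was obtained when at least 10 normalized counts were required in every library, which removes *Tlr1* and *Tlr9* from the genes tested. *Tlr2*, *Tlr7*, *Tlr13* and *Cd14* were called in all 23 settings, *Tlr3* and *Tlr4* in none, and none of the 9 tested members changed direction in its fold change. TMM rescaling turned the split of all genes from 2024 higher and 2062 lower to 2257 and 1802.

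Under a replicate block, 5 members were called, and *Tlr1* was lost (adjusted p = 0.0623); 1453 genes were higher and 1489 lower. Same-numbered libraries did not deviate together (mean correlation -0.245, over 0.1 in 1 of 6 pairs, and 0 libraries matched best with their own number), so the numbers do not pair the mice.

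Relative to *Csf1r* alone, differences turned positive for *Tlr1* (1.84), *Tlr2* (0.66), *Tlr4* (0.23), *Tlr7* (2.58), *Tlr13* (2.31), *Cd14* (1.36) and *Myd88* (0.20), while *Tlr3* was at -0.03 and *Tlr9* at 3.13. *Csf1r* itself hardly differed between genotypes, so these values stay close to the members' own fold changes. With a pseudocount of 10, *Tlr9* was at -1.06 (adjusted p = 0.00487, exact permutation test) and *Tlr1* at -1.35; the cause was not tested. The *Tlr13* difference from the 18 markers, -0.37, lost its call when any of 6 libraries was left out (WT replicates 1 and 3, and rd6 replicates 1, 2, 5 and 6), and *Tlr1* gained one without WT replicate 5 (-1.17). In the paired form of these tests, with the replicate block, the differences were the same and the smallest adjusted p was 0.0563, reached by *Tlr2*, *Tlr3*, *Tlr4*, *Cd14* and *Myd88*. Since 6 pairs allow no exact p under 0.03125, these 5 stood at the limit of the design, and the paired form says nothing about their stability. *Tlr8*, *Tlr9* and *Ticam2* had few reads per library, which limits the precision of their values.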
